A study of Drosophila melanogaster with 9 samples.

Results

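Induced endoreplicating cells (iECs) of 2 kinds were set against mitotic cycling cells, and the genes that changed alike in both kinds are described here. The cells were S2-DGRC, a *Drosophila* line of embryonic origin with features of blood cells, treated with CycA dsRNA, Myb dsRNA or GFP dsRNA and harvested after 96 h. All 9 libraries of the series were used, 3 biological replicates of each treatment. CycA dsRNA and Myb dsRNA each switch S2 cells into cycles that repeat DNA synthesis without dividing, and GFP dsRNA, which has no fly target, leaves them cycling. The labels give 12% fetal bovine serum for every library, whereas the methods of the study give different serum for S2 cells and iECs without naming the GFP dsRNA cells. Any such serum difference cannot be told apart from the treatments. The comparison was the mean of the CycA dsRNA and Myb dsRNA groups, with equal weight, against GFP dsRNA. Calls needed an adjusted p under 0.05 in edgeR together with a log2 fold change of 0.5 or more in either direction. A called gene was then counted as alike when both iEC groups had changed in the same direction and the 95% interval of the log2 difference between them lay wholly within 0.5 of 0. Of 9231 genes tested, 414 were alike, 161 higher and 253 lower in iECs.

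In a mitotic cycle, S phase is followed by chromosome segregation on a spindle and by cytokinesis. Cyclin A activates the kinase Cdk1 for entry into mitosis. Myb works within Myb-MuvB, a complex through which many genes of mitosis and cytokinesis are transcribed. Endoreplicating cells skip part or all of mitosis and become polyploid, and such cells are common in fly tissues such as the salivary gland and the fat body.

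The 2 dsRNAs are shown because they define the 2 states. The CycA dsRNA (gene on 3L) is 391 bases long and the Myb dsRNA (gene on X) 392 bases. They shared no word of 21 bases on either strand, and their longest common run was 8 bases. A stretch of 150 bases of each follows, from 1 to 150 of the CycA dsRNA and from 17 to 166 of the Myb dsRNA, with the common run, on opposite strands, in capitals.
CycA dsRNA: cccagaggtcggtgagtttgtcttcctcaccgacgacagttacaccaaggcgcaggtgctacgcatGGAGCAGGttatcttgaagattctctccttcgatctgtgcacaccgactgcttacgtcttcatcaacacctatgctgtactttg
Myb dsRNA: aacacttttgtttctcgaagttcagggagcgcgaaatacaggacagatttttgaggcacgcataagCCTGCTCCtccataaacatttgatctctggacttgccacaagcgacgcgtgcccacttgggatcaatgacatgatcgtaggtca

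Levels are CPM, a gene's counts relative to the library total after TMM scaling. *CycA* was at 24.1, 43.2 and 24.7 CPM in CycA dsRNA iECs and at 262, 258 and 261 CPM in Myb dsRNA iECs, against 186, 181 and 185 CPM in control cells. *Myb* was at 165, 164 and 169 CPM in CycA dsRNA iECs and at 13.3, 15.2 and 12.8 CPM in Myb dsRNA iECs, against 224, 203 and 219 CPM in control cells. Each targeted mRNA was thus lowest under its own dsRNA, and neither gene was alike in the 2 states. Libraries held 29128930 to 44280452 counts. Among controls, replicates 1 and 2 stood furthest apart, at 46.3 for the chi-square of their counts divided by its degrees of freedom, where the other replicate pairs gave 2.82 to 20.7. The deviation of a control library from its group mean was related to gene length across genes, with a Spearman correlation of 0.442 in replicate 1, -0.521 in replicate 2 and 0.248 in replicate 3, against -0.175 to 0.223 in the iEC libraries. The blood cell regulator *srp* was at a mean of 197 CPM in iECs and 206 CPM in control cells. Of 7 plasmatocyte markers, the summed level was 783 to 791 CPM in CycA dsRNA iECs, 490 to 510 CPM in Myb dsRNA iECs and 459 to 498 CPM in control cells. Most of the higher sum was *crq*, at 488 to 495 CPM in CycA dsRNA iECs against 214 to 222 CPM in control cells. In the mean of both groups *crq*, *eater* and *Sr-CI* were called higher, and *srp*, *Hml*, *NimC1* and *Pxn* were not called. Among 4 lamellocyte markers, mean levels in iECs and control cells were 991 and 658 CPM for *mys* and 11.1 and 3.72 CPM for *ItgaPS4*. They were 30.1 and 34.1 CPM for *PPO3* and 0.0216 and 0.00962 CPM for *atilla*. The summed level was thus nearly all *mys*. It ran from 1320 to 1440 CPM in CycA dsRNA iECs and from 660 to 698 CPM in Myb dsRNA iECs. In control cells it was 631 to 742 CPM. The 4 muscle markers, nearly all *sls*, summed to 51.5 to 55.6, 18.7 to 19.1 and 8.68 to 12.4 CPM in the same order, 3 germline markers to 6.34 to 8.39, 11.6 to 12.9 and 4.25 to 4.58 CPM, and 4 fat body markers to under 1 CPM in every library. The part of these differences in the results was not tested, and a smaller share of cells and less RNA per cell cannot be told apart in bulk samples.

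In the mean of both groups, 1660 genes were higher (18% of those tested) and 668 were lower (7.24%) than in control cells. Alike genes were 1.74% of the genes tested on the higher side and 2.74% on the lower side, which is 9.7% of the called higher genes and 37.9% of the called lower genes. With only the genes at a mean of at least 5 CPM tested, the called genes were 504 higher and 377 lower. Of the 1660 higher genes, 1022 also differed between CycA dsRNA and Myb dsRNA iECs by the direct test, and of the 668 lower genes 276 did. For 127 and 24 of these, the fitted changes of the 2 knockdowns had opposite signs. CycA dsRNA over Myb dsRNA, 1426 genes were higher (15.4%) and 1339 were lower (14.5%). Whether a gene can be counted as alike depends on its precision and on the size of its change. The margin of 0.5 is the same for all genes. A given proportion between the 2 changes thus meets it more readily when both are small. The called higher genes were at a median of 0.548 CPM in control cells with an interval of 0.406 to each side, and the called lower genes were at 31.7 CPM with 0.158. Among the 6788 genes with an interval under 0.25 to each side, 103 of 463 higher genes were alike (22.2%) and 232 of 511 lower genes were (45.4%). All 414 alike genes had the 6 iEC libraries on one side of the 3 control libraries. Of all tested genes, 18% had them above and 20% below. The rule for alike genes used these same libraries and favours such a separation, so the separation adds no support. Alike lower genes had a median length of 1306 bases and alike higher genes 3817 bases, where all tested genes had 2035. Of the alike genes, 27.3% of the higher and 40.7% of the lower overlapped an exon of a gene on the opposite strand, against 35.7% of all tested genes. Whether reads were counted by strand is not stated, so reads of such pairs cannot be told apart. Among genes described here, *Mps1* overlaps *alt*, *mei-S332* overlaps *Vrp1*, *wac* overlaps *Tudor-SN* and *SdhA* overlaps *CG11257* in this way. So do *mRpS34* and *Golgin104*, *Pglym78* and *eIF2D*, *vret* and *CG6985*, *Dif* and *CG15141*, and *Myb* and *CG15914*. *Ald1* overlaps *asRNA:CR44321*, *SdhD* overlaps *PTPMT1*, *Timp* overlaps *Syn*, and *CycE* overlaps *asRNA:CR44866* and *lncRNA:CR44974*. Some others are given beside their values. Of all list genes tested, 59 of 894 were alike lower and 11 alike higher.

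**Figure D1:**
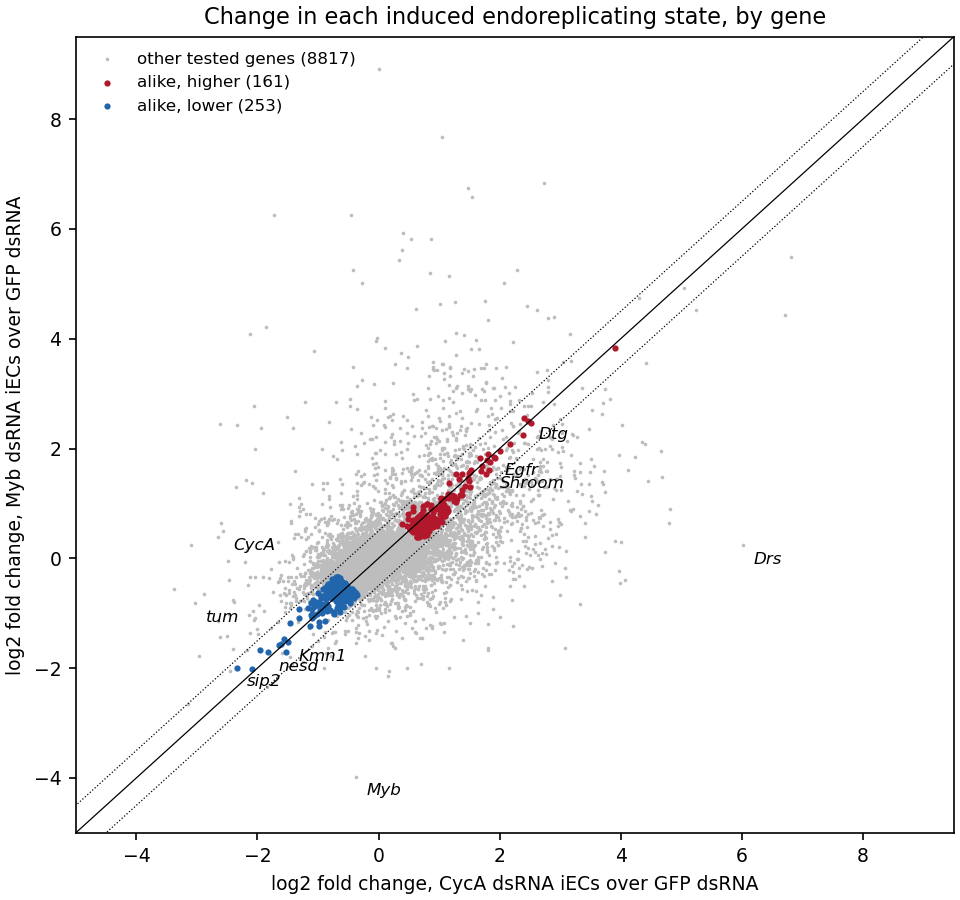
Log2 fold change over GFP dsRNA, with CycA dsRNA iECs on the horizontal and Myb dsRNA iECs on the vertical axis, for each of 9231 genes, where the solid line marks equal change and the dotted lines a difference of 0.5. The 161 alike higher genes (red) and the 253 alike lower genes (blue) lie near the solid line by their definition, *CycA*, *Myb*, *tum* and *Drs* lie away from it, and both axes share the control libraries.

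The rule sets sharp edges. Just inside the margin was *l(1)G0004*, with changes of -0.70 in CycA dsRNA and -0.38 in Myb dsRNA iECs, and just outside it was *CG4676*, with 0.72 and 0.88 and an interval for the difference of -0.502 to 0.185. *Hsc20* passed the fold threshold with a mean log2 fold change of -0.5002, and *CG7339* missed it with -0.4982.

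Of the 15 largest alike falls, 7 were in the mitotic lists. These were *sip2*, *msd5*, *Poc1*, *Kmn1*, *Zwilch*, *Mps1* and *dgt6*. The other 8 were *nesd*, the noncoding *lncRNA:CR44526* (-1.62) and *asRNA:CR44367* (-1.59), the peptide gene *Orcokinin* (-1.09), and *CG14079* (-2.06), *CG44303* (-1.51), *CG30001* (-1.18) and *CG9149* (-1.11), which have no role given here. *CG14079*, *lncRNA:CR44526* and *asRNA:CR44367* were no longer alike without 1 or more of the iEC libraries. *asRNA:CR44367*, *CG44303* and *CG30001* overlap other genes on the opposite strand. *nesd*, whose protein binds the centralspindlin complex of the cytokinetic midzone, was at 21.4, 20.9 and 19.9 CPM in CycA dsRNA iECs and at 22.2, 22.4 and 22.9 CPM in Myb dsRNA iECs, against 71.2, 76.7 and 72.7 CPM in control cells. The iEC libraries spanned 3 CPM and stood far below the controls. Its mean log2 fold change was -1.77 (standard error 0.0397, adjusted p = 2.04e-13), and the 2 states differed by -0.12 (95% interval -0.23 to -0.0121). *sip2*, the largest alike fall, was at 27.6, 30.6 and 29.2 CPM in CycA dsRNA iECs and at 37.4, 36.1 and 38.3 CPM in Myb dsRNA iECs, against 152, 146 and 148 CPM in control cells. Its mean log2 fold change was -2.17 (standard error 0.038, adjusted p = 2.9e-14). Part of it overlaps an exon on the opposite strand. Without CycA dsRNA replicate 2 or Myb dsRNA replicate 2, the interval of its difference reached -0.506 and -0.503, past the margin.

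Centrioles are duplicated once per cycle, and *Poc1* encodes a protein of their wall. It was at 20.9, 21.4 and 18.2 CPM in CycA dsRNA iECs and at 21.4, 20.4 and 21.1 CPM in Myb dsRNA iECs, against 63.1, 66.2 and 59.1 CPM in control cells. The values of the 2 states overlapped, and their difference was -0.06 (interval -0.203 to 0.0834) beside a mean fall of 1.61 on the log2 scale. *ana3*, needed for centriole cohesion, fell by 0.71, and the interval of its difference reached -0.527 and -0.537 without CycA dsRNA replicate 3 or Myb dsRNA replicate 1. The third alike member, *Rcd4*, was at -0.51, overlaps *Dad1* on the opposite strand, and was not called in 8 of 17 settings, being at -0.36 with the length trend removed and -0.46 without GFP dsRNA replicate 2. Of 16 centriole and centrosome genes tested, 9 were lower and 1 was higher, with a median of -0.56 beside 0.0079 over all genes tested. Of all tested genes, 7.24% were lower.

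At the kinetochore, which ties chromosomes to microtubules, 10 of 13 genes were lower and none was higher (median -1.01), beside 7.24% of all tested genes lower. Of the 13, 9 were lower with the length trend removed or without GFP dsRNA replicate 2. *Kmn1*, a kinetochore subunit, was at 6.229, 5.92 and 6.06 CPM in CycA dsRNA iECs and at 5.21, 6.2 and 6.44 CPM in Myb dsRNA iECs, against 16.3, 17.4 and 17.6 CPM in control cells. Neither state was the deeper one, with a mean log2 fold change of -1.51 (standard error 0.0663) and a difference of 0.03 (interval -0.162 to 0.226). *Kmn1* overlaps *CG11699* on the opposite strand. *cana*, a kinesin of the kinetochore, was at 18.3, 18.7 and 18.5 CPM in CycA dsRNA iECs and at 18.2, 19.1 and 21.5 CPM in Myb dsRNA iECs, against 40.5, 34.6 and 43.1 CPM in control cells. The third alike member, *Nnf1b*, was at a mean log2 fold change of -0.51. It was not called with the length trend removed (-0.37), with genes under 5 CPM left out (-0.44), without GFP dsRNA replicate 2 (-0.49) or without CycA dsRNA replicate 3 (-0.50). Its paralog *Nnf1a* fell further in Myb dsRNA iECs, at -1.84 in CycA dsRNA and -2.34 in Myb dsRNA iECs. It was the 1 gene of the 66 lower genes in the mitotic lists with a called difference in that direction.

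The spindle assembly checkpoint holds anaphase until every kinetochore is attached. The checkpoint kinase *Mps1* was at 12, 12.1 and 11.2 CPM in CycA dsRNA iECs and at 13.4, 14.1 and 13.6 CPM in Myb dsRNA iECs, against 29.1, 29.4 and 29.1 CPM in control cells. The groups were tight and far apart, with a mean log2 fold change at -1.20 (standard error 0.0445, adjusted p = 2.68e-11). *Zwilch*, of the complex that brings dynein to kinetochores, fell by 1.32 on the log2 scale. Without CycA dsRNA replicate 2 or Myb dsRNA replicate 2, the interval of its difference reached -0.505 and -0.508. Separase, which cuts cohesin at anaphase and is encoded by *Sse*, was at 9.26, 8.1 and 8.19 CPM in CycA dsRNA iECs and at 8.19, 8.68 and 9.97 CPM in Myb dsRNA iECs, against 18.4, 18 and 18.8 CPM in control cells. *mei-S332*, the shugoshin that protects cohesin at centromeres, was at a mean log2 fold change of -0.58, and *Det*, the survivin subunit of the chromosomal passenger complex, at -1.03. The interval of the *Det* difference reached -0.505 and -0.522 without replicate 1 of CycA dsRNA or of Myb dsRNA.

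Augmin nucleates new microtubules from the sides of existing ones, and all 8 of its genes were lower (median -0.97), *msd5*, *dgt6* and *wac* being alike. The share of lower genes among all tested genes was 7.24%. *wac* was at 28.9, 29.9 and 31 CPM in CycA dsRNA iECs and at 30.1, 33.8 and 31.2 CPM in Myb dsRNA iECs, against 47.7, 51.1 and 46.7 CPM in control cells. The 2 states overlapped, with a difference of -0.08 (interval -0.199 to 0.0398). *msd5* fell by 1.81 on the log2 scale, overlaps the augmin gene *msd1* on the opposite strand, and was no longer alike without CycA dsRNA replicate 1 or Myb dsRNA replicate 2 or 3 (lower bounds -0.53, -0.525 and -0.528). *dgt6* fell by 1.12, with a lower bound of -0.492. It lost the alike call in 5 of the 9 fits without 1 library, where the bounds were -0.526 and -0.516 (CycA dsRNA replicates 1 and 2), -0.546 and -0.52 (Myb dsRNA replicates 2 and 3) and -0.508 (GFP dsRNA replicate 3).

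By the fixed margin and the direct test, the lower genes of the mitotic lists differed between the states more often than they were alike. Over the 10 mitotic lists, 66 of 149 tested genes were lower and 6 were higher in the mean of both groups, with a median of -0.41. Of the 66, 15 were alike, and in 46 the fall was called deeper in CycA dsRNA iECs by the direct test. Set against the control one at a time, 82 of the 149 were lower under CycA dsRNA and 41 under Myb dsRNA. Over all tested genes, 14.1% were lower under CycA dsRNA and 6.78% under Myb dsRNA. The centralspindlin subunit *tum* was at 17.9, 16.2 and 14.6 CPM in CycA dsRNA iECs and at 76.2, 75.8 and 72.5 CPM in Myb dsRNA iECs, against 132, 131 and 132 CPM in control cells. The 3 groups were fully separate, and the states differed by -2.21 on the log2 scale. *aurB*, the kinase of the passenger complex, was at 15.3, 14.5 and 14.5 CPM in CycA dsRNA iECs and at 32, 31.9 and 32.1 CPM in Myb dsRNA iECs, against 63.2, 67.7 and 64.9 CPM in control cells. *Cks30A*, a partner of Cdk1, differed by -1.20 and *pav*, the kinesin of centralspindlin, by -0.74. None of the 7 lower genes in the list for mitotic entry, *CycA* among them, were alike. The same held for the 6 in the list for cytokinesis, and *nesd* is in neither list. Without GFP dsRNA replicate 1, 8 entry genes were lower and 1 was alike, and with the length trend removed 7 cytokinesis genes were lower and none was alike. The 15 alike members were spread over the spindle, kinetochore, checkpoint, centriole and chromosome lists. Across every other setting the count of lower mitotic genes was 63 to 68, and with the length trend removed it was 67, of which 15 were alike.

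**Figure D2:**
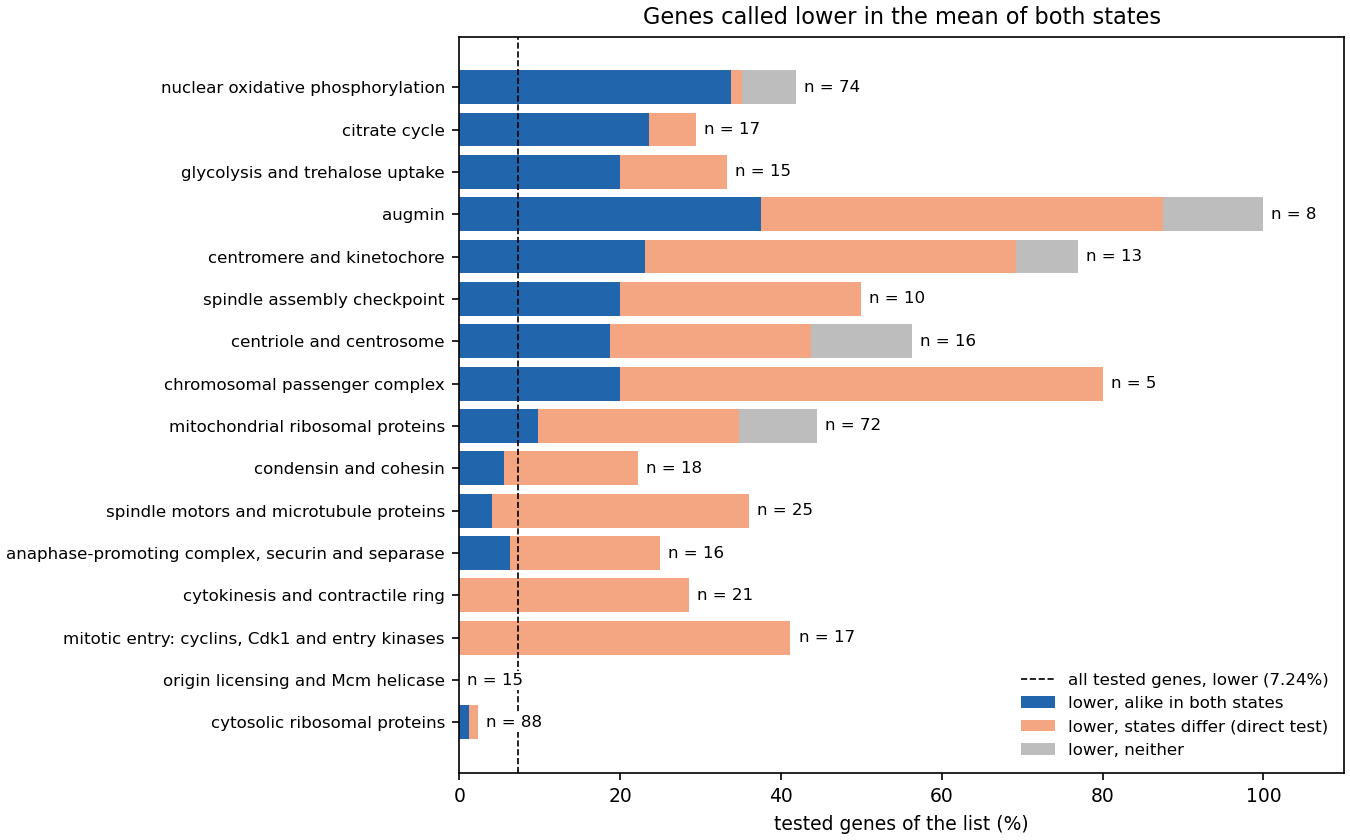
Percent of the tested genes of each list that were called lower in the mean of both iEC groups, divided into genes alike in both states (blue), genes for which the states differed by the direct test (orange) and the rest (grey), with the number of genes tested beside each bar. The dashed line is the 7.24% of all tested genes called lower; blue makes up most of the bar for oxidative phosphorylation (25 of 31) and none of it for mitotic entry or cytokinesis.

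Genes of mitochondrial energy supply held more alike falls than the mitotic lists, 25 against 15, but 7 against 15 with the gene-length trend removed. Small falls meet the fixed margin more readily, so these counts do not show which list changed more alike in proportion. The respiratory chain passes electrons from NADH and succinate to oxygen, and ATP synthase uses the resulting gradient. Of 74 nuclear genes of oxidative phosphorylation tested, 31 were lower and 2 higher, with a median of -0.48, and 25 of the 31 were alike. The 2 higher ones were *ATPsynbetaL*, at a mean log2 fold change of 1.60, and *ND-51L1*, at 1.39, both named after their values were seen. All 6 iEC libraries lay below all 3 controls for 64 of the 74. Over all tested genes, 20% had this order and 7.24% were called lower. Set against the control one at a time, 46 were lower under CycA dsRNA and 13 under Myb dsRNA, where 14.1% and 6.78% of all tested genes were lower (21.2% and 14.9% higher). The medians were -0.58 and -0.35 and the median difference between the states was -0.17, so these counts differ more than the changes do.

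By complex, 8 of 34 genes of complex I, 3 of 4 of complex II, 6 of 9 of complex III, 5 of 11 of complex IV and 8 of 15 of ATP synthase were lower. *SdhA*, the flavoprotein of succinate dehydrogenase, was at 137, 134 and 133 CPM in CycA dsRNA iECs and at 148, 146 and 150 CPM in Myb dsRNA iECs, against 210, 224 and 220 CPM in control cells. The groups did not overlap, the mean log2 fold change was -0.63 (standard error 0.0345, adjusted p = 1.68e-09) and the states differed by -0.14 (interval -0.222 to -0.0493). *SdhC*, its membrane anchor, was at 44.6, 42.6 and 39.6 CPM in CycA dsRNA iECs and at 48.9, 50.7 and 50.4 CPM in Myb dsRNA iECs, against 67.1, 79.1 and 68.5 CPM in control cells. Control replicate 2 was the highest library here. In complex III, *UQCR-Q* was at 94.2, 94.5 and 81.2 CPM in CycA dsRNA iECs and at 112, 111 and 109.5 CPM in Myb dsRNA iECs, against 154, 170 and 152 CPM in control cells. In complex I, *ND-B14.5B* was at 36.1, 35.8 and 38.3 CPM in CycA dsRNA iECs and at 38.7, 39.4 and 39.4 CPM in Myb dsRNA iECs, against 53.1, 67.2 and 61.2 CPM in control cells. Replicate 2 of the controls was again the highest. The genes of this list were short, with a median of 848.5 bases. With the gene-length trend removed, 9 were lower, 7 of them alike, with a median of -0.37. That fit removes each library's trend around the mean of all libraries. It thus also removes any length-related change between iECs and control cells. Without control replicate 2, 19 were lower and 16 alike, and without replicates 1 and 3 the lower genes were 41 and 44. The 4 genes above were lower and alike in each of these fits. The count of the list varied with the control library left out and with removal of the length trend. The part of the length trend in the fall was not tested.

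**Figure D3:**
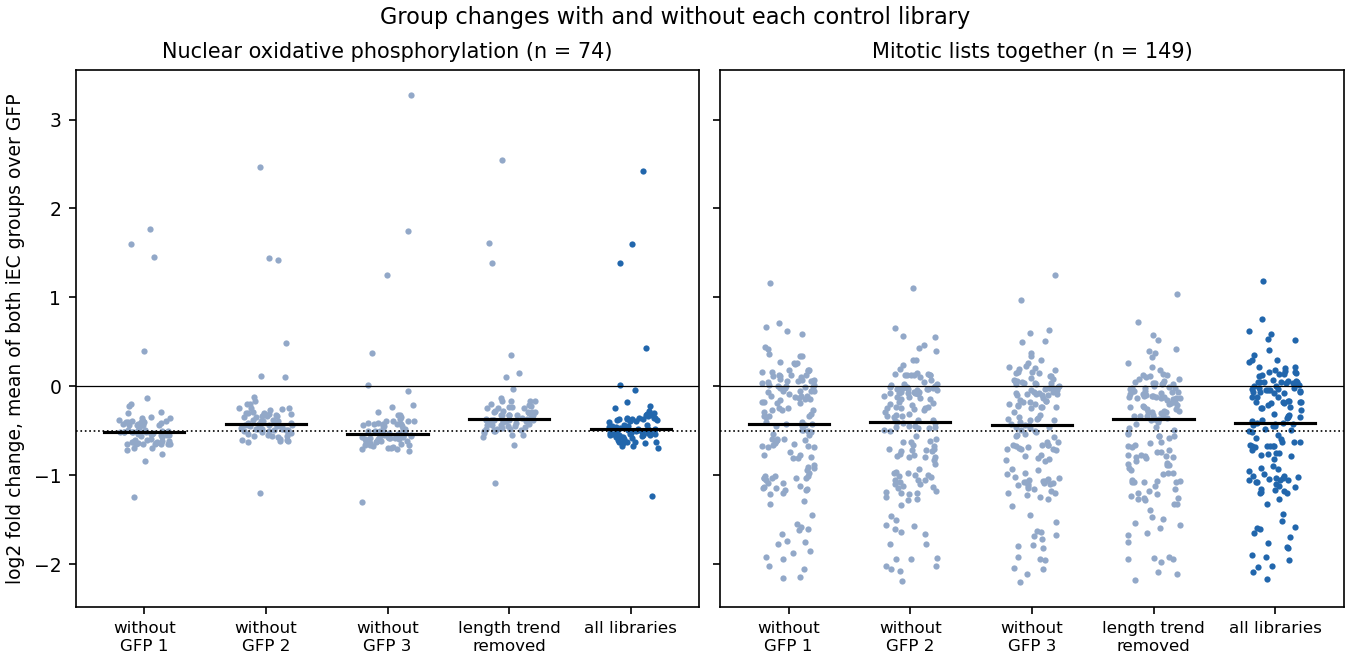
Mean log2 fold change of both iEC groups over GFP dsRNA for each gene (points, spread sideways for clarity) and the median (bar) of 74 genes of oxidative phosphorylation (left) and 149 mitotic genes (right), without each control library, with the gene-length trend removed, and with all libraries. The dotted line at -0.5 is the fold threshold; the median of the left group lay between -0.37 and -0.53 and crossed it in part of the fits, whereas the deep falls of the right group stayed in place.

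Of 72 mitochondrial ribosomal protein genes, 32 were lower and none higher (median -0.49), but 7 were alike and 18 fell further in CycA dsRNA iECs. Shares over all tested genes were 7.24% lower and 2.74% alike lower. *mRpS34*, of the small subunit, was at 23.3, 21.7 and 22 CPM in CycA dsRNA iECs and at 22.8, 22.3 and 23.7 CPM in Myb dsRNA iECs, against 34.1, 39.1 and 34.6 CPM in control cells. The states overlapped, with a difference of -0.04 (interval -0.174 to 0.0887). The list had a median length of 783 bases, and 16 of its genes were lower with the length trend removed. Of 17 citrate cycle genes, 5 were lower and none higher, and 4 were lower with the length trend removed. Of the 5, *SdhA*, *SdhC* and *SdhD* are the complex II genes counted above, and the others were *mAcon1* and *ScsbetaG*. The cytosolic ribosomal protein genes, also short at a median of 909.5 bases, had 2 of 88 lower, 2 higher (*RpS5b* and *RpL22-like*) and a median of -0.20, which was -0.08, with none lower, with the length trend removed. *Hsp60A*, the chaperonin of the mitochondrial matrix, was at 499.6, 521 and 497 CPM in CycA dsRNA iECs and at 577, 577 and 638 CPM in Myb dsRNA iECs, against 811, 884 and 849.5 CPM in control cells.

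Haem, the cofactor of the cytochromes, is made by a pathway that starts and ends in mitochondria. This pathway, mitochondrial protein import and the EGF receptor pathway were picked after their values were seen, and their counts are a description only. Of all tested genes, 7.24% were called lower and 2.74% were alike lower. Of 7 haem synthesis genes tested, 5 were lower and 4 alike (median -0.57), and 4 were lower with the length trend removed. *Alas*, the first and rate-limiting enzyme, was at 104, 118 and 104 CPM in CycA dsRNA iECs and at 129, 128 and 129 CPM in Myb dsRNA iECs, against 206, 213 and 199 CPM in control cells. *FeCH*, the ferrochelatase that inserts iron last, was at 106, 112 and 105 CPM in CycA dsRNA iECs and at 110.0, 109 and 115 CPM in Myb dsRNA iECs, against 155.8, 174 and 164 CPM in control cells. Neither gene had an iEC library near a control. The *Alas* states differed by -0.24 and the *FeCH* states by -0.05 (interval -0.152 to 0.0563). *Cyt-c-p*, the cytochrome c of somatic cells, fell by 0.60 with a difference of 0.01 (interval -0.0941 to 0.12), and was at -0.46 and not called with the length trend removed. Of 14 genes of mitochondrial protein import, 8 were lower (6 with the length trend removed) and 6 alike, among them *Tom7* at -0.72 and *Tim9a* at -0.63, *Tim9a* being at -0.48 and not called with the length trend removed.

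Glycolysis splits glucose into pyruvate in the cytosol. Of 15 genes of glycolysis and trehalose uptake, 5 were lower and none higher (median -0.44), and here Myb dsRNA iECs were the lower ones, with a median difference of 0.35 between the states. Against the control, 4 were lower under CycA dsRNA and 13 under Myb dsRNA, beside 14.1% and 6.78% of all tested genes. In the mean of both groups, 7.24% of all tested genes were lower. *Pglym78*, *Tpi* and *Ald1* were alike. The aldolase *Ald1* was at a mean log2 fold change of -0.60 (standard error 0.0668), with -0.47 in CycA dsRNA and -0.72 in Myb dsRNA iECs. *Tpi*, triosephosphate isomerase, was at 175, 197 and 183 CPM in CycA dsRNA iECs and at 142, 143 and 179 CPM in Myb dsRNA iECs, against 262, 317 and 288 CPM in control cells. Myb dsRNA replicate 3 lay with the CycA dsRNA libraries, and without it the difference was 0.38 with an upper bound of 0.536, past the margin. Without CycA dsRNA replicate 1 the upper bound was 0.507. For *Pglym78*, the upper bound of 0.481 became 0.524 and 0.509 without CycA dsRNA replicates 1 and 3, and 0.544 without Myb dsRNA replicate 3. The lactate dehydrogenase gene *Ldh* and the trehalose transporter gene *Tret1-1* fell further in Myb dsRNA iECs, by differences of 0.83 and 0.54.

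Transcription factors and signals were among the falls as well. *E2f2*, the repressive E2F and a member of the complex that holds Myb, was at 41.7, 44.1 and 46 CPM in CycA dsRNA iECs and at 45.7, 44.3 and 43.2 CPM in Myb dsRNA iECs, against 72.3, 73.5 and 70 CPM in control cells. The 2 states overlapped, with a difference of -0.01 (interval -0.114 to 0.0865) beside a mean log2 fold change of -0.70. *E2f2* overlaps *Mpp6* on the opposite strand. *daw*, an activin-like ligand, fell by 1.01, and *bnl*, the FGF that guides tracheal branches, fell by 0.80, both named after their values were seen. *vret*, a Tudor protein of the piRNA pathway, was at 39, 40.8 and 40.3 CPM in CycA dsRNA iECs and at 51.4, 46.5 and 50.5 CPM in Myb dsRNA iECs, against 83.8, 87.8 and 88.7 CPM in control cells.

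**Figure D4:**
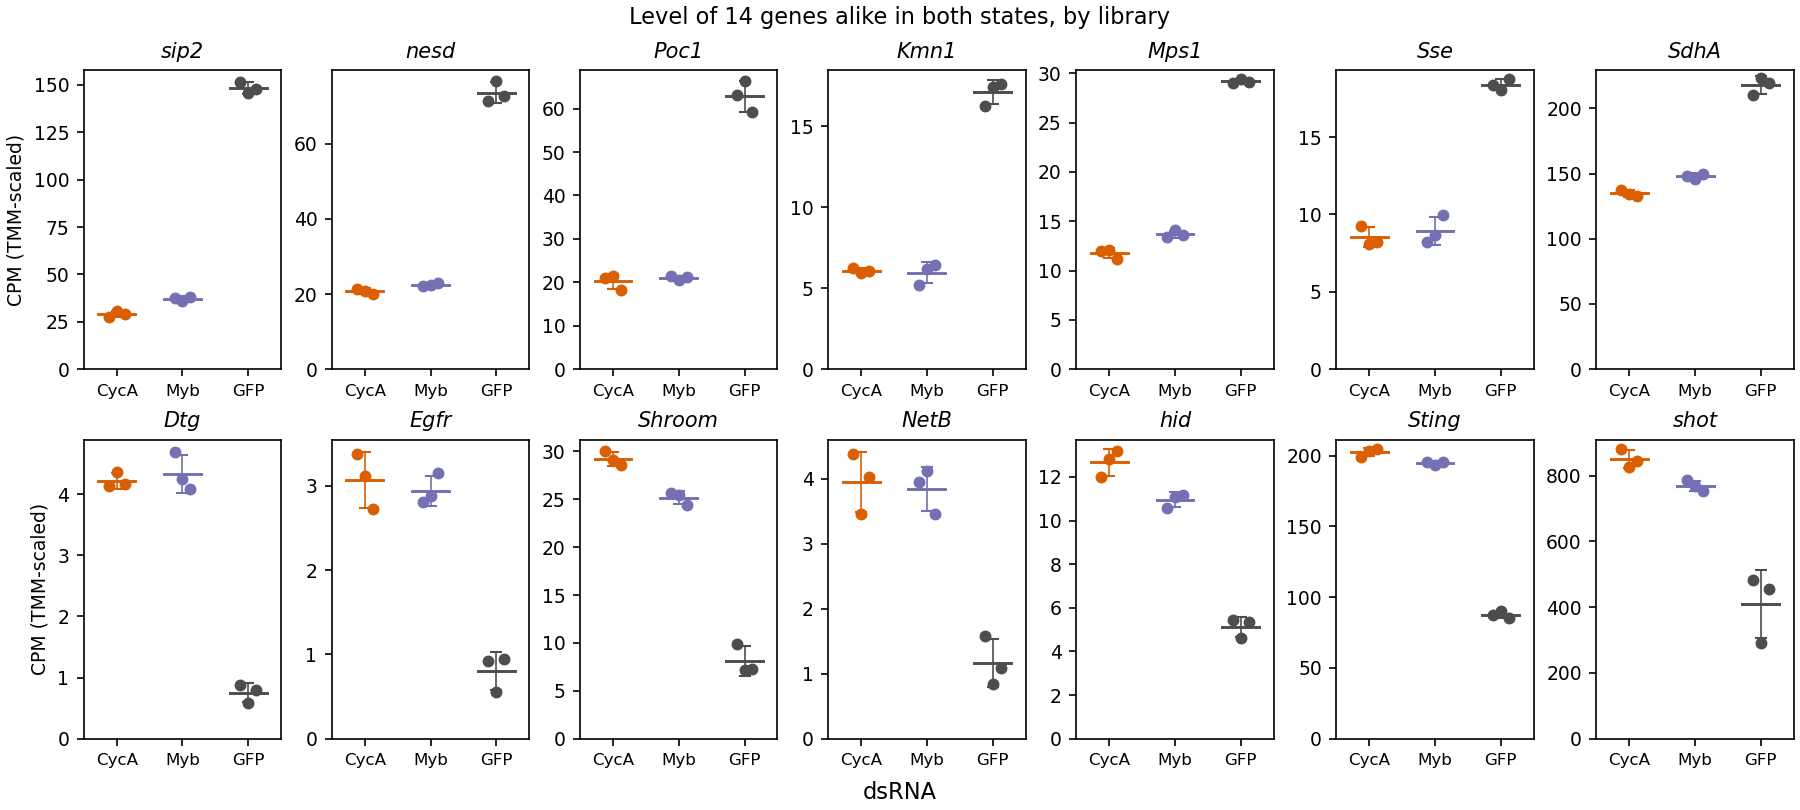
Level in CPM of 14 alike genes in each of the 3 CycA dsRNA, 3 Myb dsRNA and 3 GFP dsRNA libraries (points), with the mean and SD of each group, on an axis that starts at 0. In the upper row the 6 iEC libraries lie below the controls, for *SdhA* between 133 and 150 CPM against 210 to 224 CPM, and in the lower row they lie above them, for *Sting* between 194 and 204.7 CPM against 85.4 to 89.9 CPM.

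The 161 alike higher genes were at a median of 5.46 CPM in control cells, against 0.548 CPM for all called higher genes. The largest alike rises began at low levels in most cases. Of the 15 largest, *Shroom* and *T48* alone were at a mean of at least 5 CPM over all libraries. *Dtg*, a target gene of the BMP ligand Dpp in the embryo, was at 4.13, 4.37 and 4.16 CPM in CycA dsRNA iECs and at 4.69, 4.24 and 4.08 CPM in Myb dsRNA iECs, against 0.877, 0.577 and 0.801 CPM in control cells. The 2 states overlapped throughout, with a mean log2 fold change at 2.49 (standard error 0.153, adjusted p = 1.15e-09) and a difference of -0.04 (interval -0.261 to 0.182). *Shroom*, which acts on apical actin in epithelia, was at 30, 29.1 and 28.6 CPM in CycA dsRNA iECs and at 25.6, 25.5 and 24.4 CPM in Myb dsRNA iECs, against 9.92, 7.18 and 7.24 CPM in control cells. *T48*, a membrane protein of apical constriction in the gastrula, was at 9.93, 10.8 and 10.4 CPM in CycA dsRNA iECs and at 12.2, 11.2 and 11.7 CPM in Myb dsRNA iECs, against 4.63, 3.69 and 3.63 CPM in control cells. It overlaps *Ets97D* on the opposite strand. *NetB*, a netrin that guides axons, was at 4.38, 3.46 and 4.03 CPM in CycA dsRNA iECs and at 3.96, 4.11 and 3.46 CPM in Myb dsRNA iECs, against 1.57, 0.837 and 1.09 CPM in control cells. The cadherin of planar polarity, *stan*, rose by 1.79, and without Myb dsRNA replicate 1 the interval of its difference reached 0.504.

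The EGF receptor passes signals of growth and survival through Ras, and it is switched on by the ligands Spitz, Vein and Keren. *Egfr* was at 3.38, 3.11 and 2.72 CPM in CycA dsRNA iECs and at 2.81, 2.87 and 3.15 CPM in Myb dsRNA iECs, against 0.922, 0.548 and 0.944 CPM in control cells. Its mean log2 fold change was 1.88 (standard error 0.172, adjusted p = 1.08e-07), and the states differed by 0.05 (interval -0.235 to 0.336). The ligand gene *vn* was at 10.5, 9.65 and 11 CPM in CycA dsRNA iECs and at 9.28, 9.37 and 8.67 CPM in Myb dsRNA iECs, against 6.05, 4.5 and 5.84 CPM in control cells. *S* (Star), which carries the ligand Spitz to its protease, was at 136, 138 and 149 CPM in CycA dsRNA iECs and at 121, 123 and 122 CPM in Myb dsRNA iECs, against 85.1, 70.2 and 80.8 CPM in control cells. These 3 genes had every iEC library above every control. *Krn* was at a mean log2 fold change of 0.52, which was 0.45 and not called without GFP dsRNA replicate 3, and 0.49 without Myb dsRNA replicate 1 or 3. The feedback inhibitor gene *aos* was at 0.80 and rose further in Myb dsRNA iECs, by a difference of -0.55, and *spi* itself was at 0.25 and not called. Of 21 genes of this pathway tested, 5 were higher, 4 of them alike, and none was lower (median 0.21), beside 18% of all tested genes called higher and 1.74% alike higher. The count was 5 with the length trend removed and 4 without GFP dsRNA replicate 3.

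In the lists for apoptosis and for the Toll and Imd pathways, 1 of 13 and 2 of 23 genes were alike higher, beside 1.74% of all genes tested. *hid*, which frees caspases from their inhibitor, was the only 1 of 13 apoptosis genes called. It was at 12, 12.8 and 13.2 CPM in CycA dsRNA iECs and at 10.6, 11.1 and 11.2 CPM in Myb dsRNA iECs, against 5.44, 4.62 and 5.35 CPM in control cells, a mean log2 fold change of 1.19 (standard error 0.0714). *Sting*, a sensor of cyclic dinucleotides, was at 199, 203 and 204.7 CPM in CycA dsRNA iECs and at 195, 194 and 196 CPM in Myb dsRNA iECs, against 87.8, 89.9 and 85.4 CPM in control cells. It had a standard error of 0.0338 and a difference of 0.05 (interval -0.0273 to 0.136), overlaps *Orc6* on the opposite strand, and was named after its values were seen. In the Toll pathway, *Dif*, an NF-kappaB factor, was at 18.7, 17.7 and 19.6 CPM in CycA dsRNA iECs and at 16, 17.1 and 17.4 CPM in Myb dsRNA iECs, against 11, 9.75 and 10.8 CPM in control cells. Its inhibitor *cact* was at 0.55, overlaps *fzy* on the opposite strand, and was at 0.49 and not called with the length trend removed. Of the 10 antimicrobial peptide genes tested, all 10 were higher under CycA dsRNA (median 1.44) and 8 were lower under Myb dsRNA (median -1.09). Of all tested genes, 21.2% were higher under CycA dsRNA and 6.78% lower under Myb dsRNA. *Drs* (drosomycin) had a log2 fold change of 6.02 under CycA dsRNA and of 0.24, not called, under Myb dsRNA, and none of the 10 was alike. None of 14 blood cell surface receptors and thioester proteins was alike either. In the mean of both groups 10 of the 14 were higher, beside 18% of all tested genes. Of these 10, 9 were higher still in CycA dsRNA iECs. Against the control, 12 of the 14 were higher under CycA dsRNA, and 5 were higher and 1 lower under Myb dsRNA. The share of all tested genes higher under Myb dsRNA was 14.9%.

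**Figure D5:**
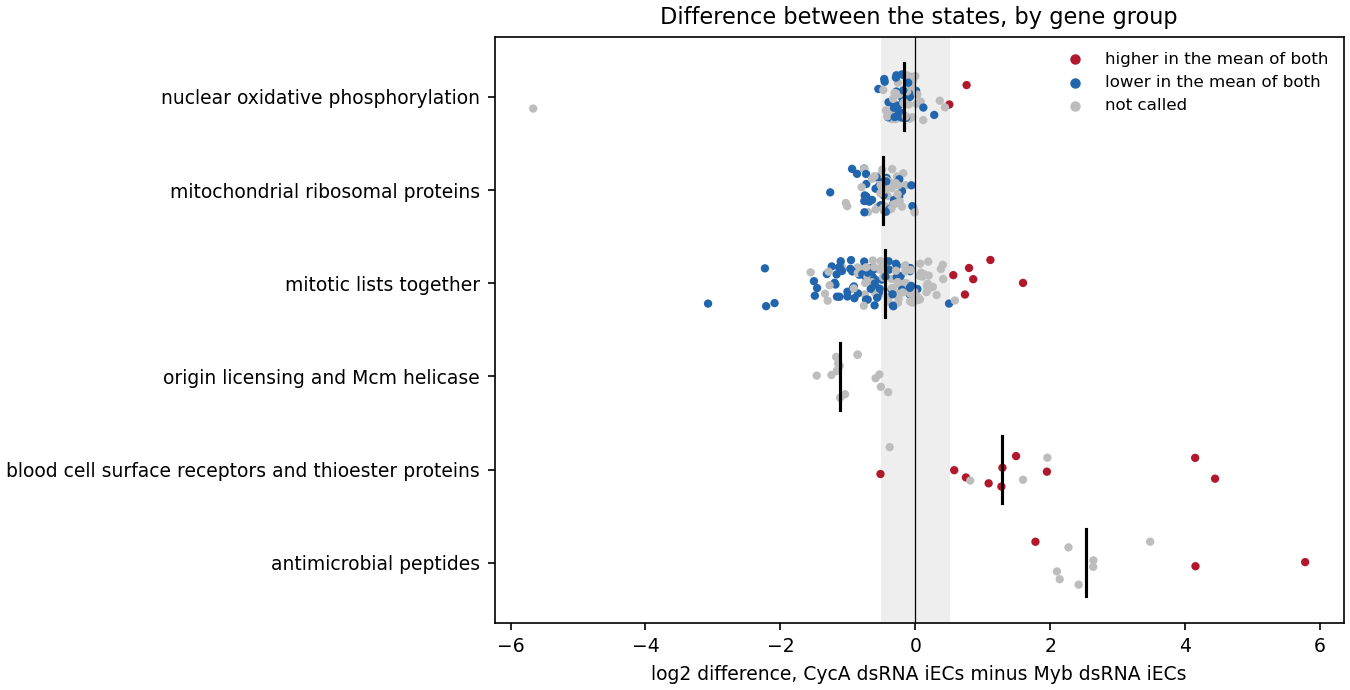
Log2 difference of CycA dsRNA iECs minus Myb dsRNA iECs for each tested gene of 6 groups (points, spread vertically for clarity), coloured by the call in the mean of both groups over GFP dsRNA, with the median of each group as a bar and the margin of 0.5 shaded. The median was -0.17 for oxidative phosphorylation, -0.48 for mitochondrial ribosomal proteins, -0.45 for the mitotic lists, -1.11 for origin licensing, 1.29 for blood cell receptors and 2.53 for antimicrobial peptides.

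Some genes rose alike from higher levels. *shot*, the spectraplakin that links actin to microtubules, was at 879.8, 825 and 846 CPM in CycA dsRNA iECs and at 785, 767 and 754 CPM in Myb dsRNA iECs, against 484, 292 and 454 CPM in control cells. Control replicate 2 was the lowest library. *Zasp52*, of integrin attachment sites and Z discs, was at 519.9, 498 and 471 CPM in CycA dsRNA iECs and at 412, 428 and 373 CPM in Myb dsRNA iECs, against 249.8, 199 and 222 CPM in control cells. Both were named after their values were seen, and *Zasp52* passed the margin without CycA dsRNA replicate 3 or Myb dsRNA replicate 2 (upper bounds 0.513 and 0.508). In the list for basement membranes and matrix proteases, 6 of 14 genes were higher, beside 18% of all tested genes, and *trol* and *Timp* were alike. *trol*, the perlecan of basement membranes, was at 135, 129.6 and 134 CPM in CycA dsRNA iECs and at 111, 116 and 98.7 CPM in Myb dsRNA iECs, against 68.9, 50.3 and 64.9 CPM in control cells. Its upper bound of 0.478 went to 0.53, 0.51, 0.515 and 0.542 without CycA dsRNA replicate 2 or 3 or Myb dsRNA replicate 1 or 2. *msn*, a kinase upstream of JNK, was at 0.54, and at 0.37 and not called with the length trend removed or 0.46 without GFP dsRNA replicate 2. The noncoding RNA *lncRNA:roX1*, part of the dosage compensation complex of the X chromosome, was at 130.5, 132 and 136 CPM in CycA dsRNA iECs and at 106, 112 and 111 CPM in Myb dsRNA iECs, against 62.7, 59.1 and 61.2 CPM in control cells. It too was named after its values were seen, and it overlaps *ec* on the opposite strand.

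Several systems of the S phase and of growth held few called genes in the mean of both groups. None of 15 genes for origin licensing and the Mcm helicase was called in the mean of both groups, in either direction. This mean hid opposite states, with medians of -0.43 in CycA dsRNA and 0.62 in Myb dsRNA iECs and a median difference of -1.11. Against the control, 4 of the 15 were lower under CycA dsRNA and 12 were higher under Myb dsRNA. Of all tested genes, 14.1% were lower under CycA dsRNA and 14.9% higher under Myb dsRNA. In edgeR, 9 of the 15 had an adjusted p under 0.05 in the mean contrast with a change under the fold threshold, 8 of them higher. Of 28 genes of the replication fork and nucleotide synthesis, *CycE* and *RnrS* were higher, neither alike. Set against the control one at a time, 9 genes were lower under CycA dsRNA and 10 were higher under Myb dsRNA (medians -0.31 and 0.46). The shares over all tested genes are the same 14.1% and 14.9%. Without GFP dsRNA replicate 3, 1 gene was higher and 1 lower. None of 20 genes of insulin, Tor and Myc signalling was called, and 10 had an adjusted p under 0.05, with changes of -0.48 to 0.28 over the list. Without GFP dsRNA replicate 2, 1 of the 20 was lower.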

How the data were processed

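RNA was measured in 9 libraries, 3 per treatment, prepared with a stranded mRNA kit. The authors aligned reads with STAR 2.6.1a to *D. melanogaster* Release 6 and counted exon reads per gene with featureCounts, and they deposited raw counts for 17493 genes. Whether strand was used in counting is not given in the sources used here. Their own comparison tables, which hold fold changes and p-values from DESeq2, were not used. Libraries were grouped by the labels. With edgeR 4.0.16 in R 4.3.3, genes were filtered with filterByExpr (minimum count 10), scaled with TMM factors and fitted with the quasi-likelihood model over the 3 groups, and p-values were adjusted by Benjamini-Hochberg over 9231 genes. Intervals are 95% intervals of the fitted CycA dsRNA minus Myb dsRNA difference. Coordinates and overlaps come from a Release 6 annotation, matched for 17372 genes. For the length alternative, a spline of log gene length with 5 degrees of freedom was removed from each library. It was fitted to deviations from the mean of all libraries, so length-related differences between iECs and control cells were removed too.

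Named genes were *CycA* and *Myb*, the 15 largest alike changes in each direction among genes averaging 50 counts or more, up to 3 alike genes and up to 2 genes that differed between the states from each of 43 lists, and others named as seen first. Not every gene that this rule gives is described. The members, lists and rule were chosen with earlier results of these data known. The fit was also run on simulated counts. These had the same spread in all groups and no length trend, unlike the controls here, so that run does not test their part. Other scaling, filters, tests, margins, DESeq2 1.42.0, a replicate block, and each library left out were tried. The labels call the libraries biological replicates and do not say how the cultures were separated, so p-values measure the spread between these libraries.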

Additional observations from a re-analysis of the deposited data

Results flagged for a closer look

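For the following genes the CycA dsRNA effect and the Myb dsRNA effect over the same controls differed by the direct test (edgeR, adjusted p under 0.05 and a difference of at least 0.5 in size). The differences are CycA dsRNA minus Myb dsRNA on the log2 scale. For the targeted genes they were -3.07 for *CycA* and 3.60 for *Myb*. Mitotic genes with the lower level in CycA dsRNA iECs were *Cks30A* (-1.20), *aurB* (-1.12), *pav* (-0.74), *tum* (-2.21), *msd1* (-0.61) and *fzy* (-1.17), and *Nnf1a* had the lower level in Myb dsRNA iECs (0.50). The S phase genes *CycE* (-0.63) and *RnrS* (-0.65) and the feedback inhibitor gene *aos* (-0.55) were higher in Myb dsRNA iECs. *Drs* (5.78), *Tret1-1* (0.54) and *Ldh* (0.83) were higher in CycA dsRNA iECs.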

How the results depend on the processing

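With genes at a mean of at least 5 CPM tested, 504 genes were higher and 377 lower in the mean of both groups, 106 and 155 were alike, and 1730, 719 and 1525 genes were called for CycA dsRNA, Myb dsRNA and their difference. Without the fold threshold the mean contrast gave 3082 higher and 3175 lower genes, and with a test against that threshold 1102 and 364. The alike genes were 40 higher and 88 lower with a margin of 0.3, and 659 and 521 with a margin of 1. When a call in each knockdown by itself was asked for, 155 lower genes were alike. With the gene-length trend removed, 148 higher and 213 lower genes were alike, of which 126 and 172 were alike before. Leaving out each library gave 1577 to 1690 higher and 611 to 837 lower genes, 121 to 183 and 227 to 335 alike genes, and 3152 to 3363, 1921 to 2079 and 2715 to 2870 calls for CycA dsRNA, Myb dsRNA and their difference. Of 100 named alike genes, 43 were alike under each of 17 settings, 57 were not in at least 1, and 20 of these were not tested at 5 CPM. Same-numbered libraries had correlations of deviations of -0.047 to 0.097, and libraries of other numbers and groups -0.088 to 0.036. The numbers are those of the library titles. The read data of the highest-numbered CycA dsRNA and Myb dsRNA libraries carry a different number from their titles, unlike those of GFP dsRNA. Matching by number is thus uncertain for these libraries. The study states that control cells were treated in parallel with the knockdowns, without saying whether replicates were matched by number. These low correlations cannot settle whether same-numbered cultures were treated side by side, which the labels do not say. A replicate block, set by the same title numbers, gave 1662 higher and 668 lower genes, with 164 and 258 alike. Over the named genes 81 of 2901 values lost the call and none turned direction. Called higher genes had lower levels and wider intervals than called lower genes, and depth as their source was not tested.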
